A study of Mus musculus with 2 samples.

Results

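The genes described here carry out mitosis: 45 genes of chromosome segregation, the kinetochore and the condensin complex, chosen by symbol from a fixed list of names. This list was drawn up with earlier results of these data known. All 45 were found among the 18987 genes of the deposited count table. The study sequenced RNA from RAW264.7, a mouse line of macrophage type that turns into osteoclasts when given the cytokine RANKL, in 2 libraries. One library came from cells carrying an shRNA against Cpeb4, and the other from cells carrying a control shRNA. Per the labels, both cultures were plated at 7500 cells per cm2, received RANKL at 100 ng/ml after 24 h, and were collected on day 3 according to the series title. The labels name no shRNA sequence, clone, vector or batch. Each group had 1 library, so every difference below compares these libraries, with no test and no replicate check.

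CDK1 bound to cyclin B drives entry into mitosis once CDC25 phosphatases activate it, and cohesin-linked sister chromatids, compacted by condensin, attach to spindle microtubules through their kinetochores. The spindle checkpoint holds the anaphase-promoting complex inactive until every chromosome is attached. That complex then marks securin and cyclin B for destruction, separase cuts cohesin, and the cell divides. Transcripts of these genes are produced mainly late in the cell cycle, and cells that leave the cycle to differentiate, as osteoclast precursors do, keep few of them. Many promoters of these genes carry a cell cycle genes homology region (CHR), bound by the DREAM complex in resting cells and by B-MYB and FOXM1 complexes in dividing cells, often near CCAAT boxes bound by NF-Y.

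RefSeq promoter windows of GRCm38.p6, 250 bases before to 50 bases after the annotated start, were matched for 38 of the 45 members. The CHR was searched as TTTGAA or TTCGAA and the CCAAT box as CCAAT, on both strands. Of the windows below, 4 hold both, that of Ccnb1 holds a pair of CCAAT boxes without the CHR letters, and that of Nuf2, added after the search, holds neither. Capitals mark the matches, and each sequence runs 5′ to 3′ on the strand of its gene. The windows lie at chr9:70421505-70421804 for Ccnb2 (minus strand), chr2:172370521-172370820 for Aurka (minus strand), chr2:69206164-69206463 for Spc25 (minus strand), chr7:122159185-122159484 for Plk1 (plus strand), chr13:100786437-100786736 for Ccnb1 (minus strand) and chr1:169531415-169531714 for Nuf2 (minus strand).
Ccnb2: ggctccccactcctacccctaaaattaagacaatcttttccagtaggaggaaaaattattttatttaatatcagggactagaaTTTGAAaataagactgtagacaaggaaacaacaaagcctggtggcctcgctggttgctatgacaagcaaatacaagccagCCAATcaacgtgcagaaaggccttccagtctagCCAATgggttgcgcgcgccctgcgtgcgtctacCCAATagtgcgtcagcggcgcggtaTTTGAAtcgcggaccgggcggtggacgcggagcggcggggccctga
Aurka: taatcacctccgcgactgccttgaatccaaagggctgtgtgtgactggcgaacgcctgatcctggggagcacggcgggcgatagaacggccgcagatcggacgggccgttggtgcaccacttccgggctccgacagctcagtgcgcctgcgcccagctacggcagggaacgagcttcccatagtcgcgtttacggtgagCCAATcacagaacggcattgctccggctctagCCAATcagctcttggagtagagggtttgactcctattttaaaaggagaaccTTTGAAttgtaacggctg
Spc25: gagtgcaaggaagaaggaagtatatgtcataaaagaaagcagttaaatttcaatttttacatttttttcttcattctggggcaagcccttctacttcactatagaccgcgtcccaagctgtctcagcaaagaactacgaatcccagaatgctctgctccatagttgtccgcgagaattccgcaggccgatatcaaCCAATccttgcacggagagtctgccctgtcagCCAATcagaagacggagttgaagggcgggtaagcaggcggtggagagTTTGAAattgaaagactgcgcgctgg
Plk1: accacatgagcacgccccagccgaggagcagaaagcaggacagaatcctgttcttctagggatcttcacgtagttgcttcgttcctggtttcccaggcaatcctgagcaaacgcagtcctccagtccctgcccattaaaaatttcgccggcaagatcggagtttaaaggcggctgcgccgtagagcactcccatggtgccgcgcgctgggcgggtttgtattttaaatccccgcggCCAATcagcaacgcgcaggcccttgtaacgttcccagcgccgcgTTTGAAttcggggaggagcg
Ccnb1: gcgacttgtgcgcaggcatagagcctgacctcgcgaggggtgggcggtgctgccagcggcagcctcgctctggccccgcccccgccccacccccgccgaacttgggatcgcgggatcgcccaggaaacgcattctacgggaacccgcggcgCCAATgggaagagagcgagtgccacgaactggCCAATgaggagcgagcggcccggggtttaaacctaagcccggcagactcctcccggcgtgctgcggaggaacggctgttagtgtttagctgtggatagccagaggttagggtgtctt
Nuf2: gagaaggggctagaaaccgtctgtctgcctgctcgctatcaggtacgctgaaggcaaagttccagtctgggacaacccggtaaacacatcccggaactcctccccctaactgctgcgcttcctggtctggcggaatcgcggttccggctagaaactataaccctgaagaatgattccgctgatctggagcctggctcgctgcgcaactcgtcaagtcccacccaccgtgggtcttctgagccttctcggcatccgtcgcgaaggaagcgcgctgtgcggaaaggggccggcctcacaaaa

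The CHR letters were present in 29 of the 38 member windows (76.3%), against 19.4% of 27025 promoter windows of all genes and 14.1% of the 8788 windows of genes past the expression filter described below. A CCAAT box was present in 28 member windows (73.7%), against 37.9% of all windows and 39.8% of the filtered ones. Both motifs occurred together in 26 member windows (68.4%), against 7.70% and 6.21%. At least 2 CCAAT boxes beside the CHR letters were found in 17 member windows (44.7%), against 2.43% and 2.69%. Motif matches are descriptions of sequence and show no binding.

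Most CHR matches in the members lay close to the start of transcription. Within 50 bases of the start, a distance chosen after the positions had been seen, 27 of 38 windows (71.1%) held the CHR letters, against 5.29% of all windows and 3.63% of the filtered ones. Of the 37 neighbouring pairs of CCAAT boxes, 9 were 31 to 33 bases apart, a range also chosen after the positions had been seen. These came from 8 of the 38 member windows (21.1%), against 0.992% of all windows and 1.98% of the filtered ones. The windows of Ccnb2, Aurka and Spc25 show this spacing, with TTTGAA after the start, and that of Ccnb1 shows the spacing alone. A search for the E2F letters TTTGGCGC or TTTCCCGC, on both strands, matched 2 member windows (5.26%), those of Ncapd2 and Ncapg, against 1.63% of all windows and 3.39% of the filtered ones. In Cdca8 a CHR match and a CCAAT match share 1 base, and in Ube2c a pair of CCAAT matches on opposite strands overlap.

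**Figure D1:**
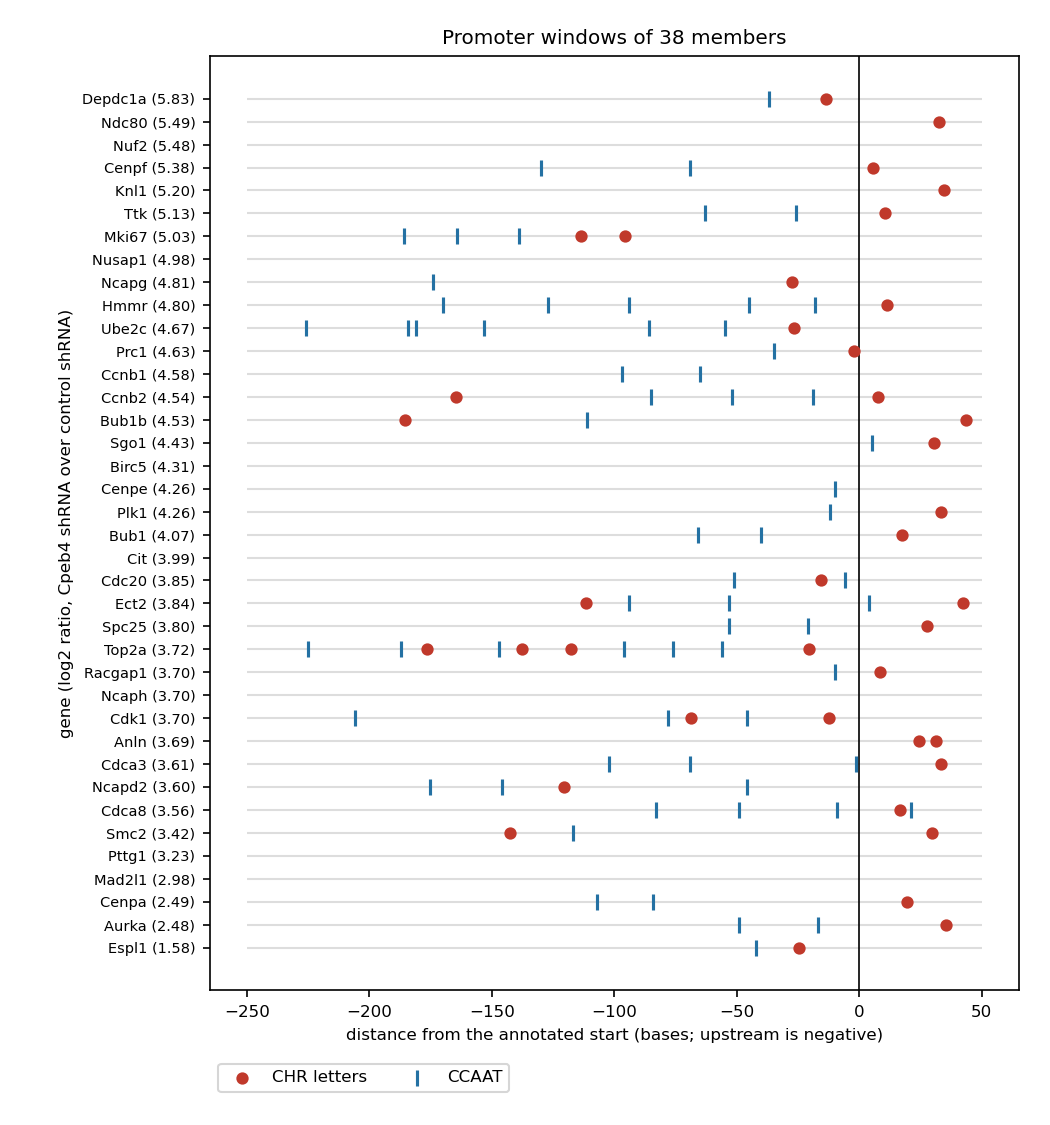
Positions of the CHR letters (points) and CCAAT boxes (bars) in 38 promoter windows, by distance in bases from the annotated start, with genes ordered by their log2 ratio of Cpeb4 shRNA over control shRNA. CHR matches within 50 bases of the start are seen in 27 windows.

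The Cpeb4 shRNA library held 119350322 counts and the control library 79399680. Levels are given as counts scaled to a common library size (CPM) after TMM scaling, a method that sets the bulk of genes equal between libraries. The expression filter kept the 12086 genes whose mean level was 1 CPM or more. Cpeb4, the targeted gene, had 13491 counts (104 CPM) in the Cpeb4 shRNA library and 25270 counts (345 CPM) in the control library, a log2 ratio of -1.73 (95% counting interval -1.76 to -1.70). Of 10 osteoclast markers, 9 had a level in the Cpeb4 shRNA library at least 2-fold below that in the control library. Among the 12086 filtered genes, 11.8% were lower by that much. The remaining marker, Nfatc1, was nearly equal, with 1578 CPM in the Cpeb4 shRNA library against 1637 CPM in the control library (log2 ratio -0.053). The 10 markers summed to 11300 CPM in the Cpeb4 shRNA library against 49810 CPM in the control library. The table lists 9 of 10 macrophage markers, of which 7 passed the filter, and the 9 summed to 3117 CPM in the Cpeb4 shRNA library against 4848 CPM in the control library. The log2 ratios of the 7 ran from -1.04 for Cd68, the only one past 2-fold, to 0.998 for Lyz2. Among those listed, Adgre1 (F4/80) and Fcgr1 were below the filter and differed in opposite directions, with 101 and 19 counts in the Cpeb4 shRNA library against 12 and 88 counts in the control library. The part of these marker levels in the results on mitotic genes was not tested. For fibroblasts or osteoblasts 5 of 10 markers were listed, for lymphoid cells 2 of 10 and for granulocytes or mast cells 0 of 10, and 0 of these passed the filter. In bulk RNA, a difference in the number of cells in mitosis and a difference in transcripts per mitotic cell cannot be told apart.

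All 45 mitotic genes, listed with earlier results of these data known, were at least 2-fold higher in the Cpeb4 shRNA library than in the control library. Of the 12086 filtered genes, 14.6% were higher by 2-fold or more and 11.8% were lower by 2-fold or more. The member median was a log2 ratio of 4.26, a 19.1-fold difference, beside a median of 0.05 over all genes past the filter. A difference of at least 8-fold was seen for 39 members, against 2.47% of all genes. At least 16-fold differences numbered 24 members, against 1.27% of all genes, and at least 32-fold differences 8 members, against 0.414%. Among the 200 genes with the highest ratios, 34 were members. Together the members took 0.470% of all counts in the Cpeb4 shRNA library and 0.0318% in the control library, and their summed level was 4335 CPM against 345 CPM, 12.6-fold higher.

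The control library held few reads of these genes, down to 16 counts, whereas the Cpeb4 shRNA library held at least 1353 counts for every member. For 6 members (Ndc80, Nuf2, Ska1, Ttk, Sgo1 and Depdc1a) the control level was under 1 CPM, so they passed the filter only through the Cpeb4 shRNA library and had to differ. The other 39 had a median log2 ratio of 3.85, and 18 of them were at least 16-fold and 4 at least 32-fold higher. Among the 11676 filtered genes at or over 1 CPM in the control library, members included, the median was 0.02. At least 16-fold and 32-fold higher levels were seen for 69 and 8 of them. The counting intervals of the members had a median width of 0.33 log2 units and reached 1.51 for Depdc1a. They cover counting error only, not the variation between cultures.

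**Figure D2:**
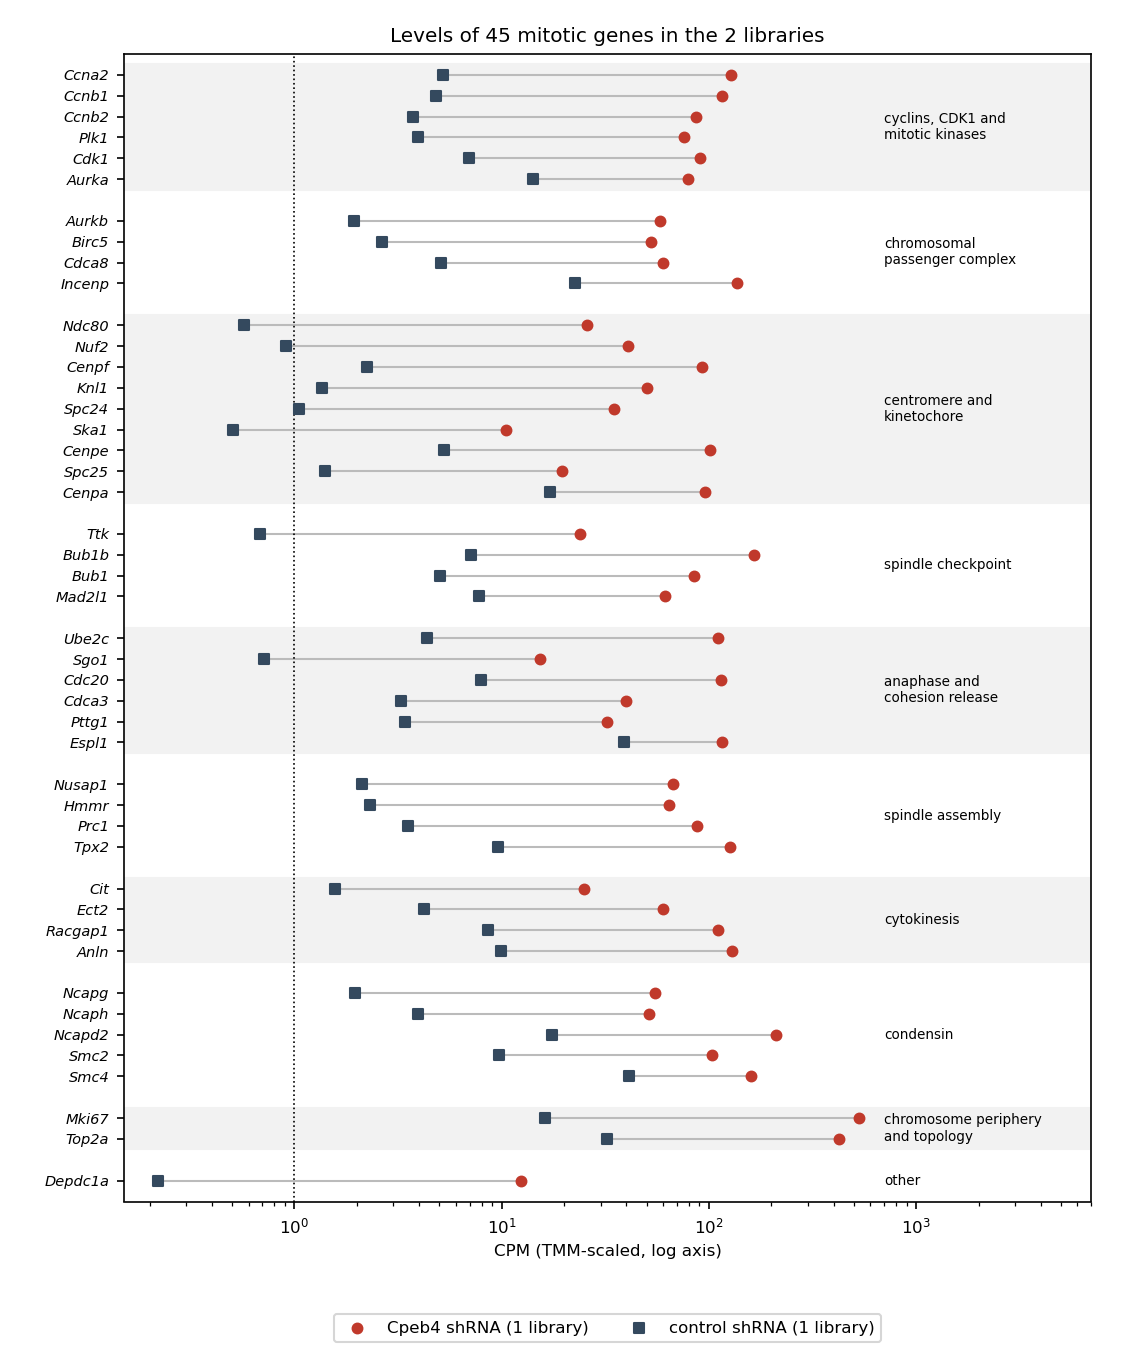
Level of each of the 45 genes in the Cpeb4 shRNA library (circles) and the control library (squares), in TMM-scaled CPM on a log axis, grouped by role, with 1 library per group and a dotted line at 1 CPM. Every circle lies right of its square, and 6 squares lie left of the dotted line.

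Cyclins, CDK1 and the mitotic kinases were high in the Cpeb4 shRNA library and low in the control library. Ccna2, the cyclin that acts from S phase into early mitosis, had 16515 counts (128 CPM) in the Cpeb4 shRNA library against 382 counts (5.22 CPM) in the control library, and the highest ratio of the 6 (log2 ratio 4.61, interval 4.47 to 4.76). Ccnb1 and Ccnb2, the B-type cyclins that activate CDK1, differed by nearly the same amount, 23.9-fold and 23.2-fold, with intervals that overlap (4.43 to 4.74 and 4.37 to 4.72). Ccnb1 had 115 CPM in the Cpeb4 shRNA library against 4.82 CPM in the control library, and Ccnb2 had 86.9 CPM against 3.74 CPM. The kinase gene Cdk1 had 90.3 CPM in the Cpeb4 shRNA library against 6.95 CPM in the control library (3.70). Plk1, the kinase of centrosome maturation and mitotic entry, had 75.5 CPM against 3.95 CPM (4.26). Aurka, the centrosomal Aurora kinase, differed least in the group, with 78.9 CPM in the Cpeb4 shRNA library against 14.1 CPM in the control library (2.48, interval 2.39 to 2.58), and had the highest control level of the 6. Reads of Ccnb1 can be split with its pseudogenes, and adding 4 listed copies at least 95% identical over 300 or more bases gave a log2 ratio of 4.46.

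The chromosomal passenger complex, which corrects faulty microtubule attachments and later directs cytokinesis, showed unequal differences among its subunits. Aurkb, its kinase, had 7487 counts (57.9 CPM) in the Cpeb4 shRNA library against 142 counts (1.94 CPM) in the control library, a 29.8-fold difference. Birc5, which encodes survivin, had 52.5 CPM against 2.65 CPM (log2 ratio 4.31), and Cdca8, which encodes borealin, had 60.1 CPM against 5.09 CPM (3.56). Incenp, the scaffold that binds and activates the kinase, had 17770 counts (137 CPM) in the Cpeb4 shRNA library against 1653 counts (22.6 CPM) in the control library, 6.09-fold higher. The intervals of Aurkb (4.66 to 5.15) and Incenp (2.53 to 2.68) were well apart, so the kinase and its scaffold differed by unequal amounts in these libraries.

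The kinetochore genes had a median log2 ratio of 5.06 over 9 genes, with 5 of them at least 32-fold higher. Of the 9, Ndc80, Nuf2 and Ska1 passed the filter only through the Cpeb4 shRNA library, and the other 6 had a median of 4.66, close to that of the spindle assembly genes at 4.72. Ndc80, the microtubule-binding subunit at the outer kinetochore, had 3344 counts (25.8 CPM) in the Cpeb4 shRNA library against 42 counts (0.57 CPM) in the control library (5.49, interval 5.06 to 5.97). Its partner Nuf2 had 5290 counts (40.9 CPM) against 67 counts (0.91 CPM), with a nearly equal ratio (5.48, interval 5.14 to 5.85). Spc24 had 35 CPM in the Cpeb4 shRNA library against 1.05 CPM in the control library (5.06), and Spc25 had 19.6 CPM against 1.41 CPM (3.80). These 4 form the Ndc80 complex, and Spc25 stood below the other three, with an interval of 3.52 to 4.10 that does not reach theirs. Knl1, the scaffold that recruits checkpoint kinases, had 50.3 CPM in the Cpeb4 shRNA library against 1.36 CPM in the control library (5.20). Cenpf, a large coat protein of the kinetochore, had 93.1 CPM against 2.24 CPM (5.38), and Cenpe, the kinesin that carries chromosomes to the spindle equator, had 102 CPM against 5.28 CPM (4.26). Ska1, which tracks microtubule ends together with the Ndc80 complex, had 10.5 CPM against 0.51 CPM (4.37). Cenpa, the histone H3 variant that marks the centromere, was the exception among the 9, with 12397 counts (95.8 CPM) in the Cpeb4 shRNA library against 1246 counts (17.0 CPM) in the control library and a 5.63-fold difference. With reads of 2700099C18Rik, which shares 303 bases at 95.1% identity with an Ndc80 transcript, added to those of Ndc80, its log2 ratio was 5.05.

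The 4 spindle checkpoint genes spanned more than 2 log2 units, from 2.98 to 5.13. The highest, Ttk, was under 1 CPM in the control library and passed the filter only through the Cpeb4 shRNA library. The other 3 ran from 2.98 to 4.53. Ttk, the MPS1 kinase that starts the signal, had 3102 counts (24.0 CPM) in the Cpeb4 shRNA library against 50 counts (0.68 CPM) in the control library (log2 ratio 5.13). Bub1b, which encodes the checkpoint protein BUBR1, had 21324 counts (165 CPM) against 522 counts (7.13 CPM) (4.53). Bub1, a kinase that marks the inner centromere, had 84.7 CPM in the Cpeb4 shRNA library against 5.05 CPM in the control library (4.07). Mad2l1, which encodes the MAD2 protein that inhibits CDC20, had 61.2 CPM against 7.77 CPM, the smallest difference of the group at 7.88-fold.

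Genes of anaphase and of cohesion release included the member that differed least of all. Ube2c, the ubiquitin-conjugating enzyme of the anaphase-promoting complex, had 14351 counts (111 CPM) in the Cpeb4 shRNA library against 319 counts (4.36 CPM) in the control library (log2 ratio 4.67). Its activator Cdc20 had 115 CPM against 7.99 CPM (3.85). Sgo1, the shugoshin that protects centromeric cohesin, had 15.3 CPM in the Cpeb4 shRNA library against 0.71 CPM in the control library (4.43). Cdca3, named as a trigger of mitotic entry, had 39.8 CPM against 3.25 CPM (3.61). Pttg1 and Espl1 encode securin and the separase that it inhibits, and they differed unequally. Pttg1 had 4166 counts (32.2 CPM) in the Cpeb4 shRNA library against 251 counts (3.43 CPM) in the control library, a 9.39-fold difference. Espl1 (mm10 chromosome 15, 102296266 to 102324357, plus strand, by GENCODE M21) had 14999 counts (116 CPM) against 2844 counts (38.8 CPM), a 2.98-fold difference (1.58, interval 1.52 to 1.64). Exons of Ube2c overlap those of Tnnc2 on the opposite strand over 22.8% of their length, and the sources used here do not say whether reads were counted by strand.

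Spindle assembly and cytokinesis genes had the smallest spreads within a role, with SDs of 0.56 and 0.14 log2 units over 4 genes each. Nusap1, a microtubule-bundling protein gene, had 66.7 CPM in the Cpeb4 shRNA library against 2.12 CPM in the control library (log2 ratio 4.98). Hmmr, which encodes a spindle pole protein and hyaluronan receptor, had 64.2 CPM against 2.31 CPM (4.80), and Prc1, the protein that crosslinks the central spindle, had 87.6 CPM against 3.54 CPM (4.63). Tpx2, the activator of Aurora A, had 127 CPM in the Cpeb4 shRNA library against 9.63 CPM in the control library (3.72). Among the cytokinesis genes, Anln, the contractile ring scaffold, had 129 CPM in the Cpeb4 shRNA library against 9.94 CPM in the control library (3.69). Racgap1 and Ect2, a GTPase-activating protein and the RhoA exchange factor that it recruits, had 111 and 60.1 CPM in the Cpeb4 shRNA library against 8.55 and 4.21 CPM in the control library (3.70 and 3.84). Cit, the citron kinase gene of the midbody, had 24.9 CPM against 1.57 CPM (3.99). The counting intervals of all 4 cytokinesis genes overlapped.

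Condensin genes differed unequally, and 1 of the core subunits stood apart. Smc4, an ATPase core subunit, had 20734 counts (160 CPM) in the Cpeb4 shRNA library against 3017 counts (41.2 CPM) in the control library, a 3.89-fold difference (log2 ratio 1.96, interval 1.91 to 2.01). Smc2, the other core ATPase, had 13428 counts (104 CPM) against 710 counts (9.69 CPM), a 10.7-fold difference (3.42, interval 3.31 to 3.53). The subunits found only in condensin I had higher ratios, with Ncapd2 at 3.60 (211 CPM in the Cpeb4 shRNA library against 17.4 CPM in the control library), the kleisin gene Ncaph at 3.70 (51.5 against 3.96 CPM) and Ncapg at 4.81 (54.8 against 1.95 CPM). Exons of Ncapg overlap Lcorl on the opposite strand over 13.4% of their length, and Lcorl itself was at -0.40.

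Mki67, Top2a and Depdc1a are members of no complex listed above. Mki67, which coats mitotic chromosomes and is the common marker of cycling cells, had the highest level of any member in the Cpeb4 shRNA library, 68525 counts (530 CPM), against 1184 counts (16.2 CPM) in the control library, a 32.8-fold difference. Top2a, the topoisomerase that untangles sister chromatids, had 54725 counts (423 CPM) against 2353 counts (32.1 CPM), a 13.2-fold difference. Together these 2 genes took 0.103% of all counts in the Cpeb4 shRNA library and 0.00445% in the control library. Depdc1a (mm10 chromosome 3, 159495433 to 159529955, plus strand, by GENCODE M21) had a log2 ratio above those of the other members, from 1611 counts (12.4 CPM) in the Cpeb4 shRNA library against 16 counts (0.22 CPM) in the control library (5.83, interval 5.13 to 6.64). This interval overlaps those of Ndc80 and Nuf2, and with 1 CPM added to both levels it was at 3.47, below Mki67 at 4.95. A listed copy, Gm5596, is 99.7% identical to Depdc1a over 2421 bases, and with its reads added the log2 ratio was 5.51.

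**Figure D3:**
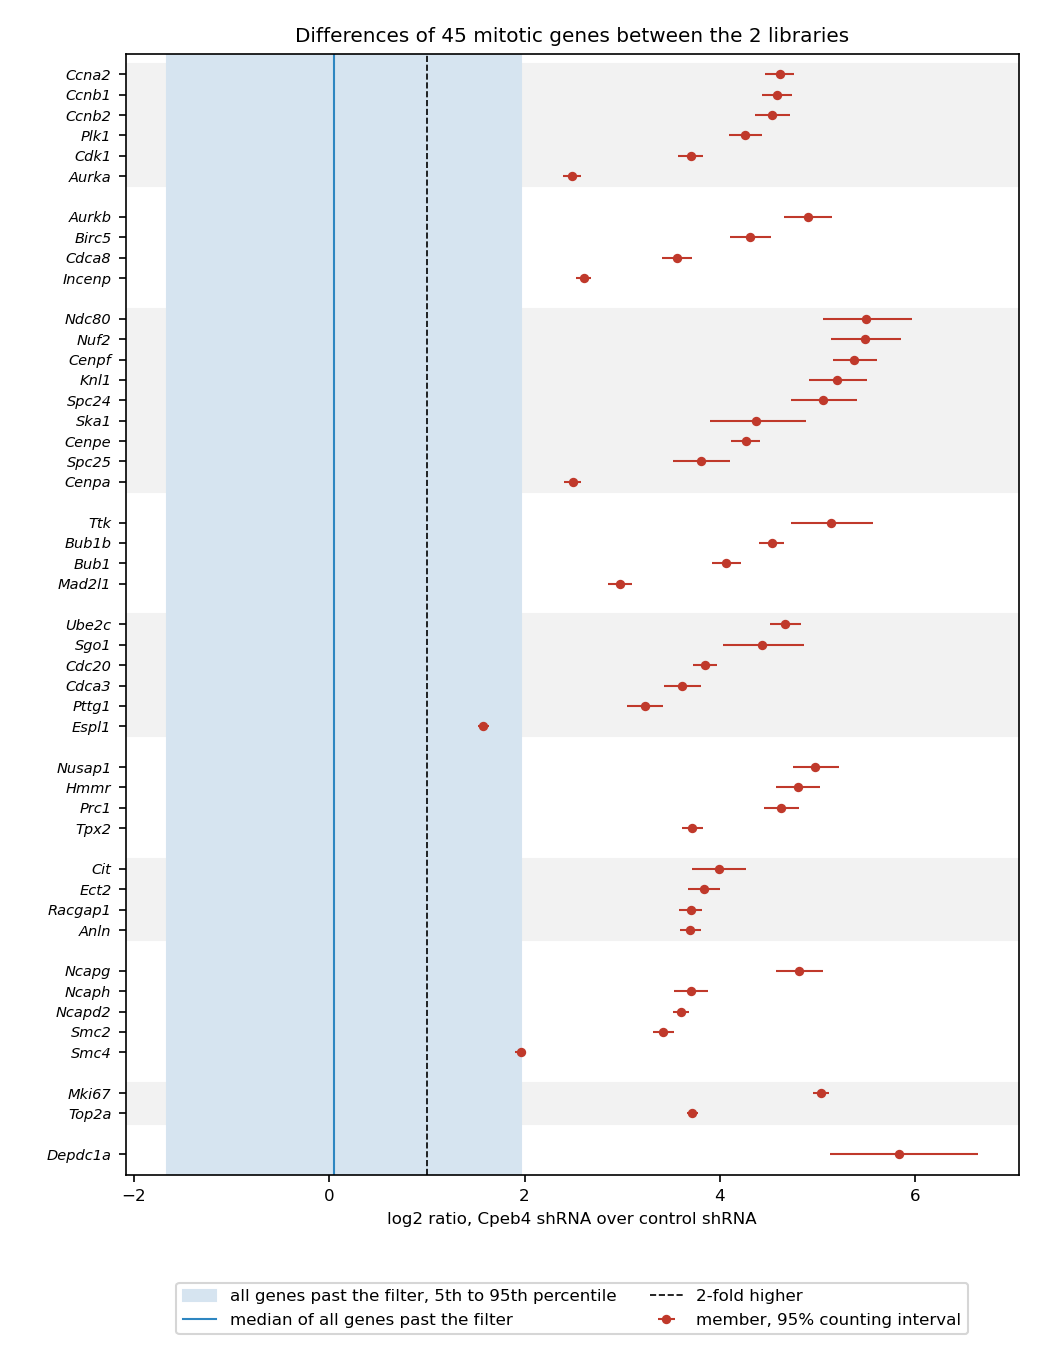
Log2 ratio of Cpeb4 shRNA over control shRNA for each of the 45 genes, with 95% counting intervals, grouped by role, over a band that spans the 5th to 95th percentile of all genes past the filter. Espl1 (1.58) and Smc4 (1.96) lie in the band and the other 43 genes lie to its right.

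Divided by the length of a gene's merged exons (TPM), the members covered a narrower range in the Cpeb4 shRNA library than in the control library. This length takes in all annotated exons of a gene, so levels set between genes depend on the annotation. In the Cpeb4 shRNA library they ran from 4.69 TPM for Cit to 190 TPM for Cdc20, with a median of 47.7 TPM and an SD of 1.22 log2 units. In the control library they ran from 0.17 TPM for Depdc1a to 20.4 TPM for Smc4, with a median of 2.83 TPM and an SD of 1.75 log2 units. The order of the members was similar in both libraries, with a Spearman correlation of 0.84 over the 45 genes, which share their merged exon lengths between libraries. Counting noise is larger in the control library, whose counts were lower.

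Subunits of condensin I and of the chromosomal passenger complex had more even levels in the Cpeb4 shRNA library. Condensin I subunits ranged from 24.0 TPM (Ncapg) to 104 TPM (Ncapd2) in the Cpeb4 shRNA library, a 4.35-fold range, against 0.71 TPM (Ncapg) to 20.4 TPM (Smc4) in the control library, a 28.6-fold range. Passenger complex subunits ranged from 35.9 TPM (Cdca8) to 98 TPM (Incenp), 2.73-fold, against 1.70 TPM (Aurkb) to 13.5 TPM (Incenp) in the control library, 7.92-fold. Smc4 and Incenp, the subunits that stood highest in the control library, were those with the smallest ratios of their complexes. The ratio divides by the control level, so a high control level lowers it by construction. This is therefore not an observation separate from the ranges above. For the Ndc80 complex the ranges were closer, 3.42-fold in the Cpeb4 shRNA library and 5.00-fold in the control library. Among Cdk1 and its cyclins the order ran the other way, with a 3.10-fold range in the Cpeb4 shRNA library and a 2.14-fold range in the control library.

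**Figure D4:**
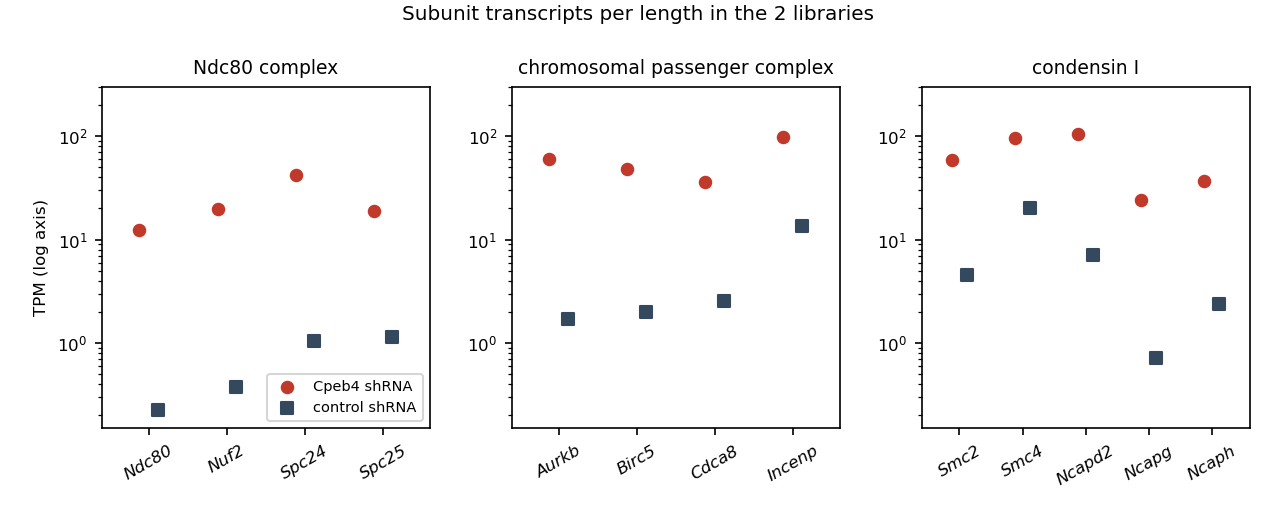
Levels per merged exon length (TPM, log axis) of the subunit genes of 3 complexes in the Cpeb4 shRNA library (circles, left) and the control library (squares, right). In condensin I and the passenger complex the squares spread wider than the circles, with Smc4 and Incenp highest among the squares.

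Mitotic genes outside the members were taken from 8 further lists with 125 genes, all of which passed the filter. Of these, 83 were at least 2-fold higher in the Cpeb4 shRNA library, 42 were within 2-fold and 0 were at least 2-fold lower, with a median log2 ratio of 1.91. As among the members, 13 of the 83 had control levels under 1 CPM and passed the filter only through the Cpeb4 shRNA library, Oip5, Cdc25c, Kif14, Fbxo5, Esco2 and Cenpm among them. Of the other 112 genes, 70 were at least 2-fold higher, with a median of 1.62. Among all filtered genes at or over 1 CPM in the control library, 1435 of 11676 were at least 2-fold higher. The lists were not alike. Other spindle and cytokinesis genes resembled the members, with 24 of 25 at least 2-fold higher and a median of 4.30. Kif14 (5.30), a kinesin of cytokinesis, and Ckap2l (5.25), a spindle protein gene, were highest there, and Arhgap11a (1.25) and Numa1 (0.88), which anchors spindle poles, were lowest.

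The lists of the anaphase-promoting complex and of cohesin had medians nearer to that of all genes than the other lists. Of 17 genes of the anaphase-promoting complex and its regulators, 4 were at least 2-fold higher and 13 within 2-fold, with a median of 0.27. Of the 16 at or over 1 CPM in the control library, 3 were at least 2-fold higher. Fbxo5, the inhibitor EMI1 of that complex, was highest (23.2 CPM in the Cpeb4 shRNA library against 0.98 CPM in the control library, log2 ratio 4.56), followed by the subunit gene Anapc5 (1.53). Anapc13 (-0.39) and Anapc16 (-0.41) were lowest. Ube2c and Cdc20, the enzyme and activator that serve the complex, are members and stood at 4.67 and 3.85. Of 13 genes of cohesin and its regulators, 5 were at least 2-fold higher (median 0.61), against 14.6% of the 12086 filtered genes. Of the 12 at or over 1 CPM in the control library, 4 were at least 2-fold higher (median 0.58). The acetyltransferase gene Esco2 (4.57), under 1 CPM in the control library, and the sororin gene Cdca5 (3.25) were highest. The loader subunit gene Mau2 (-0.07) and Esco1 (-0.18) were lowest. Over the 8 lists, 16 genes had a log2 ratio below 0, but 8 with total-count scaling and 1, Zwint, with reference-gene scaling, so the sign of the lowest genes depends on the scaling.

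Kinetochore and centromere genes outside the members were higher in most cases, with exceptions. Of 19 genes of the inner kinetochore and of centromere loading, 16 were at least 2-fold higher (median 2.81), and without the 6 of them under 1 CPM in the control library 10 of 13 were (median 1.92). Oip5, a loading factor of the centromeric histone, was highest (5.65, from 1152 counts in the Cpeb4 shRNA library and 13 counts in the control library), with Cenpm next (4.24), and Cenpt (-0.25) and Cenpx (-0.27) were lowest. Exons of Oip5 overlap those of Nusap1 on the opposite strand. Of 19 outer kinetochore and checkpoint genes, 13 were at least 2-fold higher (median 2.01). Kntc1 (5.24), a subunit of the RZZ complex, and Sgo2a (4.10), a shugoshin, were highest. Zwint, which binds Knl1 at the outer kinetochore, was lowest, with 7563 counts (58.5 CPM) in the Cpeb4 shRNA library against 7104 counts (97 CPM) in the control library (-0.73, interval -0.78 to -0.68), and Mad2l1bp, a partner of MAD2, was at -0.34. In condensin II, which shares Smc2 and Smc4, Ncapg2 (3.23), Ncapd3 (1.91) and Ncaph2 (0.99) each lay below the condensin I gene of the same subunit type.

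Regulators of mitotic entry and the transcription factors of mitotic genes also split. Of 15 mitotic entry genes, 12 were at least 2-fold higher (median 2.14), beside 14.6% of all genes past the filter. Of the 13 at or over 1 CPM in the control library, 10 were at least 2-fold higher (median 1.75). The CDK1-activating phosphatase gene Cdc25c, under 1 CPM in the control library, was highest (5.42, 1810 counts with the Cpeb4 shRNA against 24 counts). Next came the kinase gene Pbk (4.58). Arpp19 (-0.35) and Ensa (-0.36), which encode inhibitors of the phosphatase PP2A, were lowest. Of 14 genes of the B-MYB, FOXM1 and DREAM group, 7 were at least 2-fold higher (median 1.06). Mybl2, which encodes B-MYB, had 142 CPM in the Cpeb4 shRNA library against 8.55 CPM in the control library (4.05), and Foxm1 had 153 CPM against 11 CPM (3.80). The pocket protein gene Rbl2 and the DREAM subunit gene Lin52 were lowest, at -0.05 and -0.06, with intervals that include 0.

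**Figure D5:**
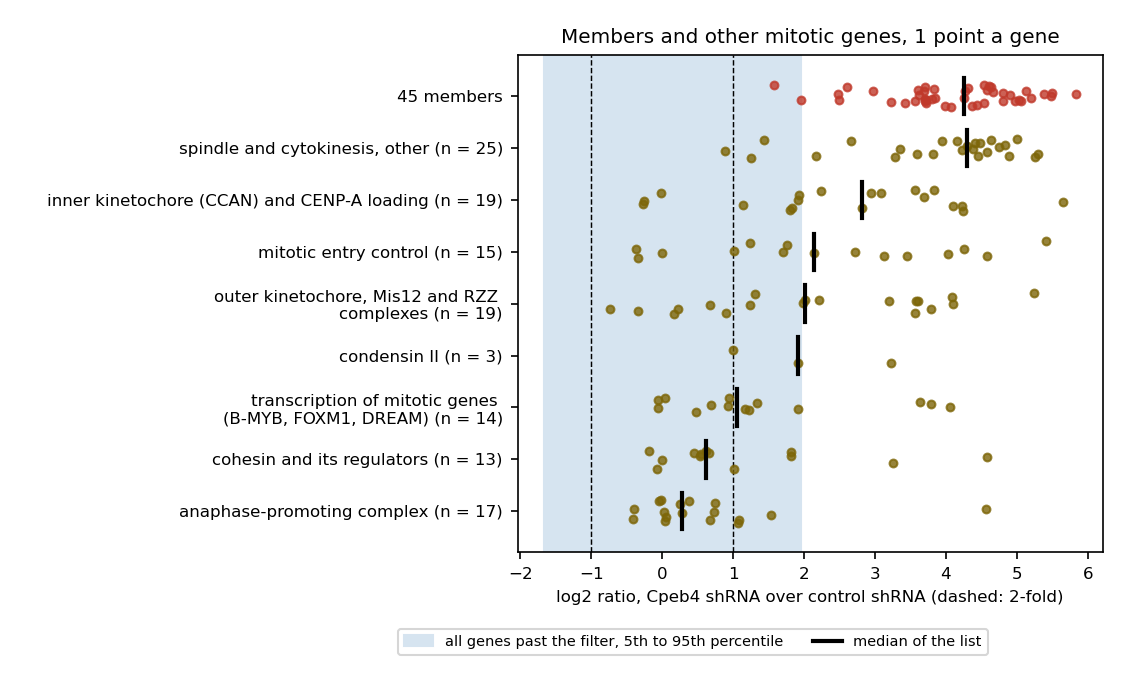
Log2 ratio of Cpeb4 shRNA over control shRNA for the 45 members and for 125 other mitotic genes in 8 lists, 1 point a gene, with black bars at list medians and a band from the 5th to the 95th percentile of all genes past the filter. Medians run from 4.30 for the other spindle and cytokinesis genes to 0.27 for the anaphase-promoting complex.

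Promoter letters were set beside these ratios. Among the other mitotic genes with a promoter window, the CHR letters were present in 38 of 69 windows (55.1%) of genes at least 2-fold higher in the Cpeb4 shRNA library and in 9 of 36 windows (25%) of genes within 2-fold. Near the start the counts were 29 of 69 (42.0%) and 3 of 36 (8.33%). No limit on the control level was set here or in the next comparison. Genes under 1 CPM in the control library passed the filter only through the Cpeb4 shRNA library, so they had to be higher there. Among genes past the filter that are not members, 22.5% of 520 genes with both motifs were at least 2-fold higher, beside 13% of 8230 genes without both. The 520 include the other mitotic genes with both motifs, of which 25 were at least 2-fold higher, so the comparisons overlap. Within the members the letters did not mark the higher ratios. The 29 with the CHR letters had a median log2 ratio of 4.07 and the 9 without them had a median of 4.26. The 7 members with neither motif ran from 2.98 (Mad2l1) to 5.48 (Nuf2), and the 26 with both ran from 1.58 (Espl1) to 5.83 (Depdc1a).

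Scaling moved the balance of all genes but not the side on which members fell. With TMM scaling 55.4% of genes past 2-fold were higher in the Cpeb4 shRNA library, with total-count scaling 71.0%, and with scaling to 10 reference genes 82.0%, since these methods raised every log2 ratio by 0.23 and 0.47. All 45 members stayed at least 2-fold higher under each of these and under DESeq2 size factors and upper-quartile scaling. Each scaling shifts all ratios by the same amount, so this is no separate check of each gene. Espl1, the lowest member, ran from 1.54 with upper-quartile scaling to 2.05 with reference-gene scaling. With TMM scaling the 10 reference genes themselves ran from -1.015 (Rab7) to 0.903 (Snrpd3), with an SD of 0.592 log2 units. They did not share a single shift between the libraries. A total of 10 members have exons that overlap another annotated gene, and their counts are uncertain to that extent. For Ncapd2 and Top2a the overlapping genes lie on the same strand, so this holds however strand was treated, and for the other 8 it holds if the counting ignored strand.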

How the data were processed

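RNA from 1 library per group was measured by RNA sequencing. The deposited table holds whole-number counts per gene, made with HISAT2 on mm10, per the submitters' processing notes. The counting tool, annotation and strand handling are not stated in the labels. Every listed gene has at least 1 count in both libraries, and genes without one are not analysed here. In both libraries more genes have 4 counts than 3 or 5 (364 against 282 and 205 with the Cpeb4 shRNA, 585 against 444 and 286 in the control), so the deposited counts may be estimates and the intervals approximate.

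TMM factors, 1.08 for the Cpeb4 shRNA library and 0.922 for the control library, came from edgeR 4.0.16 (R 4.3.3). Intervals are exact Clopper-Pearson limits (95%) of the Cpeb4 shRNA library's share of a gene's summed counts, rescaled by library size. They cover counting error only, not the variation between cultures. They also treat reads as independent, which PCR copies are not, so they can be too narrow. A count of 3 equals 0.023 CPM in the Cpeb4 shRNA library and 0.041 CPM in the control library. Gene lengths are merged exons of GENCODE M21, matched for 18954 of 18987 identifiers. Copies were sought with BLAST 2.17.0. Genes with at least 2-fold differences were counted, and computations were tested on simulated data. Members and lists were chosen with earlier results of these data known. Named genes are the members, Cpeb4, and the 2 highest and 2 lowest genes of each list of other mitotic genes. Markers and overlapping or copied genes were named after their values were seen. Alternatives were other scalings (DESeq2 1.42.0 among them), thinning of the deeper library, filters, thresholds and a pseudocount.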

Additional observations from a re-analysis of the deposited data

How the results depend on the processing

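No paired analysis was possible because there was only 1 library of each kind. The direction of every member's ratio was the same under each alternative in which it was measured. The member median, 4.26 in the main analysis, was 4.49 with total-count scaling, 4.73 with reference-gene scaling, 4.03 with the filter raised to 10 CPM (42 members, all at least 2-fold higher) and 3.68 with a pseudocount of 1 CPM, which lowers the ratios of genes with low control levels by construction. With a 4-fold threshold 43 of 45 members were higher, Espl1 and Smc4 being the others. Counts of all genes at least 2-fold higher and lower, 1765 and 1421 in the main analysis, came to 3437 and 757 when scaled to reference genes, to 3217 and 2930 unfiltered, and to 1025 and 907 with the filter at 10 CPM. A 4-fold threshold gave 582 and 426, and a threshold of 1.5-fold gave 3191 and 2674. The filters and thresholds set these counts by construction. Limiting the genes to those with at least 1 CPM in the control library, an alternative chosen after seeing the data, left 39 members with a median of 3.85, all at least 2-fold higher, beside 1435 and 1421 of all genes. The control library limits precision, since 6 members had under 1 CPM there.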
